A study of Homo sapiens with 7 samples.

Results

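Super-enhancers (SEs) at 4 genes of the integrated stress response, TRIB3, SLC3A2, SLC7A11 and GDF15, were compared in HepG2 cells treated with tunicamycin (TM) and in HepG2 cells treated with DMSO. The regions were the listed SEs linked to one of the 4 genes, and any listed SE that overlapped one of these by 1 bp or more. This gave 15 of the 7472 SEs listed over 6 libraries. Of these, 13 carried the gene name (3 TRIB3, 3 SLC3A2, 6 SLC7A11 and 1 GDF15), and 2 were added by overlap, both at GDF15. Each of the 3 TM lists held 4 of them, and each of the 3 DMSO lists held 1.

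ChIP-seq was run for H3K27ac, a histone acetylation found at active enhancers and promoters. The TM group (TM 1 to TM 3) received tunicamycin, which blocks N-linked glycosylation and so causes endoplasmic reticulum stress (ERS). The DMSO group (DMSO 1 to DMSO 3) received the solvent, and all libraries came from HepG2, a single human liver cancer line with no genetic change stated. No source used here gives the dose and duration of TM for these libraries, or says that the replicates were separate cultures, and p-values therefore cover only the spread among these libraries, which may be technical.

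ERS activates the kinase PERK, which phosphorylates the initiation factor eIF2alpha, slows general translation and favours translation of the transcription factor ATF4. ATF4 binds, often with a C/EBP family partner, to promoters and enhancers of genes for amino acid supply, redox balance and stress signalling. TRIB3 is a pseudokinase induced late in the response, and it restrains ATF4 and AKT. SLC3A2 (the CD98 heavy chain) and SLC7A11 (xCT) form the cystine/glutamate exchanger that feeds glutathione synthesis, and GDF15 is a secreted stress cytokine of the TGF-beta superfamily. An SE is a stitched cluster of H3K27ac peaks with a high summed signal.

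The stretches just upstream of the transcription start sites of TRIB3, SLC3A2 and GDF15 are shown because the TM lists placed a listed SE over a start site of each gene. They were taken from RefSeq (GRCh38.p14), which held windows for 3 of the 4 genes, all but SLC7A11. The 250 bases before 1 start site per gene are given on the plus strand, 5′ to 3′, and capitals mark matches to the motifs searched. They lie at chr20:381093-381342 for TRIB3, chr11:62881449-62881698 for SLC3A2 and chr19:18385908-18386157 for GDF15. The SE coordinates below are on another build, so these stretches were not placed on them.

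TRIB3: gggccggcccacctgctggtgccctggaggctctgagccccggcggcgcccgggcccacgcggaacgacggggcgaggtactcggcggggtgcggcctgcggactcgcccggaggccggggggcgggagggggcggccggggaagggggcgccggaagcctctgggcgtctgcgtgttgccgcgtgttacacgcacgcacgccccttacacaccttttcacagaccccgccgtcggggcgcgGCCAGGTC

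SLC3A2: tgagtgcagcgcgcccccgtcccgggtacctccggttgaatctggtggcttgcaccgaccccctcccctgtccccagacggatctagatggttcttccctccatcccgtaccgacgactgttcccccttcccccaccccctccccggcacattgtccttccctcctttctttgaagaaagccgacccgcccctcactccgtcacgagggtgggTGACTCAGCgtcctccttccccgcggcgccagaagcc

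GDF15: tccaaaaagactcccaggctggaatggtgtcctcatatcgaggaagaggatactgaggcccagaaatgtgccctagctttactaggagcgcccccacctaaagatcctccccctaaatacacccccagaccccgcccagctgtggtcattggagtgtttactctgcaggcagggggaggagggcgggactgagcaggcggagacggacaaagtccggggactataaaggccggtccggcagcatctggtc

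Windows of 300 bases (250 before and 50 after each start) were searched on both strands for 5 motifs. The C/EBP-ATF composite (TGATGNAAN), the motif bound by ATF4 with a C/EBP partner, was matched in 3.61% of 35116 RefSeq windows, and the cAMP response element (TGACGTCA) in 1.85%. AP-1 (TGANTCA) was matched in 7.71%, the antioxidant element (TGACNNNGC) in 13.3% and the ER stress element in 0.0769%. The SLC3A2 window held a composite match on the minus strand, CTTACATCA, 37 bases after its start site. It also held TGACTCAGC, 37 bases before the start site, in which the AP-1 and antioxidant motifs overlap. The 3 TRIB3 windows, whose start sites lie close together, shared 1 antioxidant match on the minus strand, GCCAGGTCA, which begins 8 bases before the start site of the stretch shown and ends at its first base. The GDF15 window and the 2 other SLC3A2 windows had no match to these 5 motifs. These matches describe the letters only, and no binding was measured.

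The question at each gene was whether its SE was listed in TM-treated cells, in control cells or in both. Coordinates are given as deposited, on a build that the sources used here do not tie to them. The lists hold only SEs above a threshold of each library, so an unlisted region may carry H3K27ac below it. Each threshold is taken as the lowest listed signal, which was 18282, 26265 and 18884 in TM 1 to TM 3, against 24793, 16747 and 24383 in DMSO 1 to DMSO 3. In these bulk chromatin samples, more H3K27ac per cell and more cells with it cannot be told apart.

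TRIB3, SLC3A2 and GDF15 each had a listed SE in 3 of 3 TM lists and in 0 of 3 DMSO lists, and SLC7A11 had 1 in all 6. Of 1784 regions made by merging the 6 lists, 7.57% were called in 3 of 3 TM and 0 of 3 DMSO lists, 5.44% had the reverse pattern, and 37.6% were called in all 6. Each of the 12 pairs of a gene and a TM library had a listed SE over a linked start site, against 3 of 12 pairs with a DMSO library, all 3 at SLC7A11. At SLC3A2 the only linked start was that of NR_037193, and other start sites of the gene were not counted. An earlier start may lie in an SE listed in all 6 libraries, as described below. Of 1917 linked start sites covered in any list, 4.75% were covered only in the 3 TM lists, 5.22% only in the 3 DMSO lists and 40.8% in all 6. The exact permutation test of a 3 to 0 pattern gave p = 0.1 (two-sided), the smallest that 3 against 3 libraries allow.

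**Figure D1:**
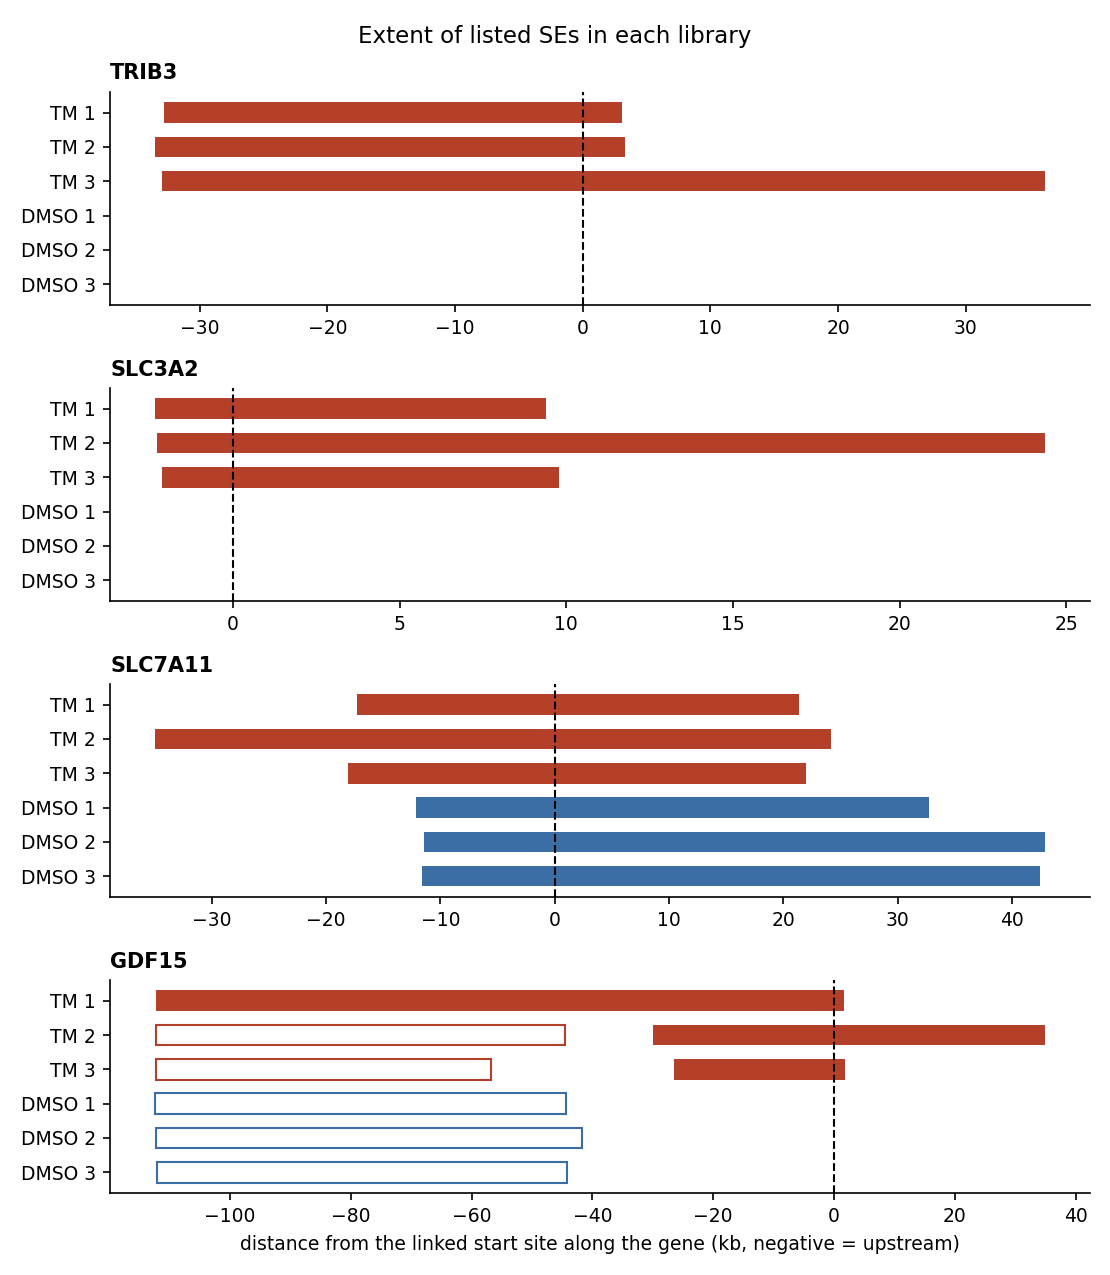
Extent of the listed SEs at each gene, in kb from the linked start site (dashed line) along the direction of the gene, with 1 row per library and TM rows above DMSO rows. Filled bars are the SEs described in the text, and open bars in the GDF15 panel are the separate SE upstream of it. TRIB3 and SLC3A2 have bars in TM rows only, the SLC7A11 bars shift along the gene, and only TM bars reach the start site of GDF15.

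At TRIB3, an SE that began far upstream of the gene and covered its start site was listed in the 3 TM libraries. It spanned 328452 to 364334 on chromosome 20 in TM 1, 327760 to 364617 in TM 2 and 328316 to 397497 in TM 3. No DMSO list had an SE there. The upstream edge lay 32.8, 33.5 and 33.0 kb before the start site of NM_021158 at 361273, a spread of 0.367 kb (SD, n = 3). The downstream edge lay 3.06 and 3.34 kb past that start site in TM 1 and TM 2 and 36.2 kb past it in TM 3, so the TM 3 SE was 69.2 kb long, against 35.9 and 36.9 kb in the other two. The start of a second transcript, NM_001301190 at 361987, was also covered in the 3 TM libraries. By the midpoint, 2 of the SEs were annotated as intergenic and the TM 3 SE as intron 1 of 3 of a TRIB3 transcript, although the SEs shared a 35.9 kb core.

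The TRIB3 SE was built from 6, 9 and 11 stitched peaks in TM 1, TM 2 and TM 3. Its density, the signal per bp, was 1.04, 1.20 and 0.709, and was lowest in TM 3, where the SE was longest. The summed signal was 37195, 44103 and 49070, which is 2.03, 1.68 and 2.60 times the threshold of the same library. The SE ranked 369 of 1130, 707 of 1507 and 260 of 1253 by summed signal, at 33.4% of the list on average (SD 13.1, n = 3, where 0% is the strongest). By summed signal it was therefore not at the end of any TM list, although it stood near the middle in TM 2 (46.9%). By density it stood at 23.5%, 43.3% and 70.9% of the list in TM 1, TM 2 and TM 3.

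Whether the missing DMSO calls required less signal was read from the thresholds. As deposited, the weakest of the 3 TRIB3 signals exceeded the highest DMSO threshold by 1.50 times. The factor was 1.22 after dividing by each library's median density over regions called in all 6 lists, and 1.42 after dividing by their median summed signal. Of 135 merged regions called in TM only, 38.5%, 23.0% and 79.3% were above that threshold on these 3 scales. For a fit over all regions, each unlisted value was set to the threshold of its library, so that all 3 DMSO values at TRIB3 were thresholds and not measurements. The log2 summed signal was then 1.00 higher in TM (SE 0.36), rank 27 of 1784 by change, with a Benjamini-Hochberg adjusted p of 0.107 in limma. In this fit 0.785% of regions were called higher in TM and 2.63% lower. Because TRIB3 entered through the TM lists and its DMSO values are thresholds, the SE and p rest partly on the spread of thresholds and do not test the DMSO signal at TRIB3.

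**Figure D2:**
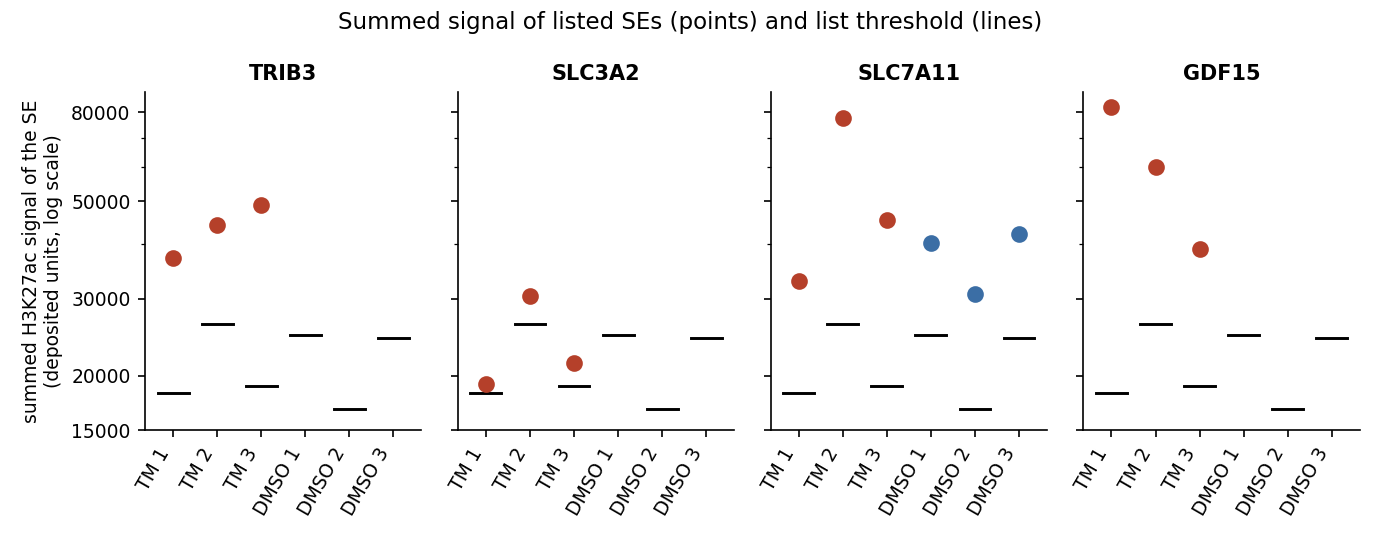
Summed H3K27ac signal of the listed SE at each gene (points, log scale) in TM 1 to TM 3 and DMSO 1 to DMSO 3, with the threshold of each library's list (black lines). A library without a point did not list the region. The GDF15 point of TM 1 includes the neighbouring part linked to LSM4. The TRIB3 and GDF15 points lie well above all 6 thresholds, the SLC3A2 points lie close to the threshold of their own library, and SLC7A11 has points in all 6 libraries.

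SLC3A2 had a short and dense SE near the end of each TM list. It spanned 62646817 to 62658575 on chromosome 11 in TM 1, 62646883 to 62673544 in TM 2 and 62647040 to 62658955 in TM 3, and no DMSO list had it. The length was 11.8, 26.7 and 11.9 kb, with 3, 4 and 3 stitched peaks. The upstream edge lay 2.35, 2.29 and 2.13 kb before the linked start site at 62649171, which belongs to the non-coding transcript NR_037193 of the gene. The midpoints lay in exon 9 and exon 10 of 12 of NM_002394 in TM 1 and TM 3, and past the gene in TM 2. The SE thus lay over the body of SLC3A2 and shared a stretch of 11.5 kb in the 3 libraries.

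Its summed signal was 19077, 30410 and 21405 in TM 1, TM 2 and TM 3, only 1.04, 1.16 and 1.13 times the threshold of the same library. By summed signal it ranked 1069 of 1130, 1218 of 1507 and 1045 of 1253, at 94.6%, 80.8% and 83.4% of the list. By density, which was 1.62, 1.14 and 1.80, it ranked 60, 697 and 93 in the same lists, at 5.31%, 46.3% and 7.42%. The signal at SLC3A2 was therefore concentrated in a few peaks in TM 1 and TM 3, and more dilute in TM 2.

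The weakest of the 3 SLC3A2 signals was 0.769 times the highest threshold of the DMSO lists as deposited, 0.713 times on the density scale and 0.976 times on the summed signal scale. As deposited, the thresholds of DMSO 1 (24793) and DMSO 3 (24383) lay above the TM 1 and TM 3 signals. Both DMSO libraries could therefore have carried as much signal as TM 1 or TM 3 without the region being listed. The threshold of DMSO 2 (16747) lay below all 3 TM signals as deposited. With unlisted values at the threshold, the log2 difference was 0.098 (SE 0.31, adjusted p = 0.998 in limma), again with thresholds in place of the 3 DMSO values. It turned negative, to -0.28, on the density scale, and to -0.086 without DMSO 2 and -0.098 without TM 2. With only SEs above the highest of the 6 thresholds, SLC3A2 was called in TM 2 alone.

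Upstream of the linked SLC3A2 start site, a separate SE was listed in all 6 libraries. It was linked to WDR74 in TM 1, TM 2, TM 3 and DMSO 2, and to SNORD22, a small nucleolar RNA gene of the same cluster, in DMSO 1 and DMSO 3. Its end lay 19.0, 19.5 and 17.8 kb before the SLC3A2 SE in TM 1, TM 2 and TM 3. Its summed signal was 27058, 42233 and 31179 in TM 1 to TM 3, against 34296, 28015 and 33173 in DMSO 1 to DMSO 3, and the groups overlapped. On the other side, the nearest listed SEs were linked to PLAAT2, PLAAT4 or LGALS12 and lay 598 to 623 kb away. RefSeq (GRCh38.p14) also held an earlier SLC3A2 start, with its window at chr11:62855859-62856108, against chr11:62881449-62881698 for the window shown. That start was not placed on the lists. The WDR74 or SNORD22 SE began between 62594737 and 62597962 and ended between 62627391 and 62631851. If the starts lie as far apart on the build of the lists, this SE covers the earlier start in all 6 libraries. The TM-only start coverage at SLC3A2 would then hold for the linked start alone.

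SLC7A11, the transport subunit of the exchanger, had an SE in all 6 libraries that covered its start site at 139163503 on the minus strand of chromosome 4 (NM_014331). It spanned 139142150 to 139180842 in TM 1, 139139324 to 139198509 in TM 2 and 139141511 to 139181553 in TM 3. In DMSO 1 to DMSO 3 it spanned 139130724 to 139175653, 139120576 to 139174920 and 139121033 to 139175087. A stretch of 32.8 kb was common to all 6.

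Both edges of the SLC7A11 SE lay further upstream in TM than in DMSO. The SE reached 17.3, 35.0 and 18.1 kb upstream of the start site in TM 1 to TM 3, against 12.2, 11.4 and 11.6 kb in DMSO 1 to DMSO 3. It reached 21.4, 24.2 and 22.0 kb into the gene in TM 1 to TM 3, against 32.8, 42.9 and 42.5 kb in DMSO 1 to DMSO 3. Neither edge overlapped between the groups, and the exact permutation test gave p = 0.1 for each, the smallest that it allows. The midpoint lay in intron 1 of 11 (TM 1 and TM 3) or upstream of the gene (TM 2), against intron 3 of 11 in the 3 DMSO libraries.

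A stretch of 5.19 kb upstream of the start site was thus in the SE of all 3 TM libraries and of no DMSO library. A stretch of 8.6 kb inside the gene was in the SE of all 3 DMSO libraries and of no TM library. Of 495 regions with 1 SE in each library, 55.8% had 1 or both edges without overlap between the groups, and 7.27% were shorter at both edges in TM. Only 2.22% (11 regions, SLC7A11 among them) had both edges moved in the same direction without overlap. SEs of the whole lists were shorter in TM, with median lengths of 38.0 to 44.0 kb against 50.9 to 65.5 kb in DMSO. The part of this difference in the edges at SLC7A11 was not tested.

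The length, peak number, summed signal and density of the SLC7A11 SE overlapped between the groups. The SE was 38.7, 59.2 and 40.0 kb long in TM 1 to TM 3, against 44.9, 54.3 and 54.1 kb in the DMSO libraries (exact permutation p = 0.5). It held 8, 12 and 10 stitched peaks in TM 1 to TM 3, against 12, 13 and 14 in the DMSO libraries (exact permutation p = 0.2). The summed signal was 32815, 77645 and 45255 in TM 1 to TM 3, against 40158, 30666 and 42168 in the DMSO libraries (exact permutation p = 0.4). The highest value was that of TM 2, the library with the highest threshold.

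The density at SLC7A11 was 0.848, 1.31 and 1.13 in TM 1 to TM 3, against 0.894, 0.564 and 0.780 in the DMSO libraries (exact permutation p = 0.2). Over the 670 regions called in all 6 lists, the median log2 density was 0.38 higher in TM. Relative to that shift, the log2 density at SLC7A11 was 0.18 higher in TM (SE 0.13, adjusted p = 0.35 in limma), where 6.72% of these regions were called higher and 10.6% lower. The log2 summed signal, centred in the same way, was 0.39 higher (adjusted p = 0.0583 in limma), where 18.7% of these regions were called higher and 13.7% lower. In rank by summed signal the SE stood at 40.6%, 18.2% and 24.4% of the list in TM 1 to TM 3, against 49.7%, 41.9% and 48.1% in the DMSO libraries (exact permutation p = 0.1). Of the 495 regions with 1 SE in each library, 36.0% stood nearer the top in all 3 TM lists without overlap and 9.9% in all 3 DMSO lists, so this was common. In rank by density the groups overlapped (exact permutation p = 1.0).

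**Figure D3:**
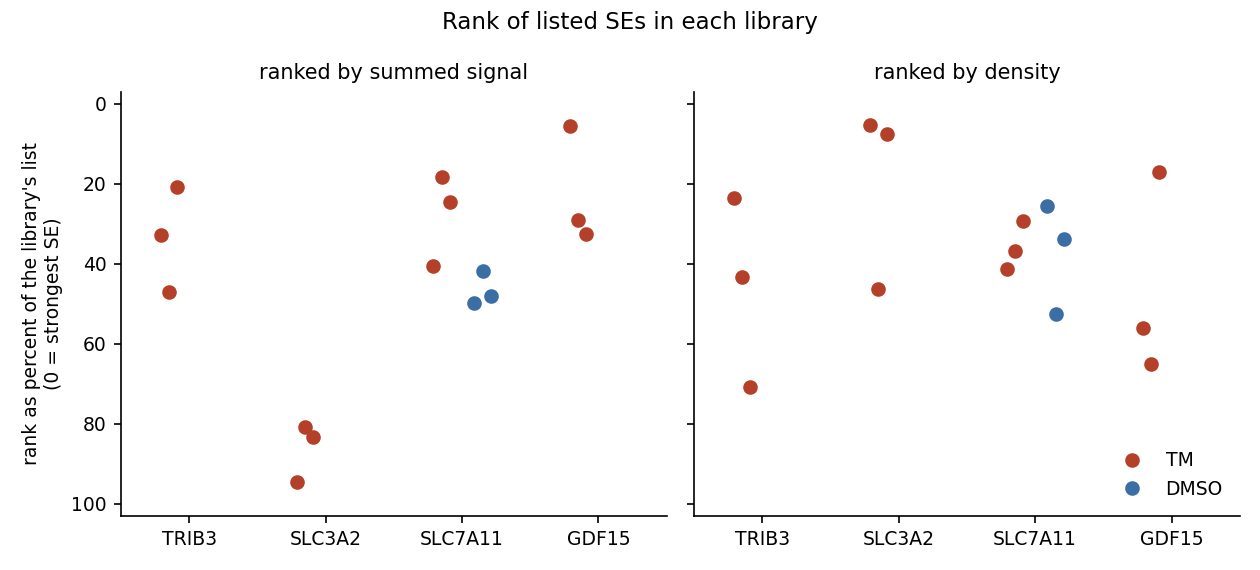
Rank of the listed SE at each gene as a percent of its library's list (0% is the strongest SE, at the top), by summed signal (left) and by density (right), with 1 point per library. SLC3A2 lies at 80.8% to 94.6% by summed signal and at 5.31% to 46.3% by density. The GDF15 point of TM 1 includes the neighbouring part linked to LSM4. The TM and DMSO points of SLC7A11 separate by summed signal and overlap by density, and the other genes have no DMSO points because no DMSO list held them.

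GDF15 carried its own name in the TM 3 list alone, where the SE spanned 18470409 to 18498818 on chromosome 19. The start site of GDF15 at 18496968 (NM_004864) was nevertheless inside a listed SE in all 3 TM libraries. In TM 1 it was the last part of a long SE from 18384760 to 18498670 that was linked to LSM4, a gene of the Sm-like family that acts in RNA splicing and decay. In TM 2 it lay in an SE from 18467062 to 18531922 that was linked to MIR3189, a microRNA gene, with its midpoint in exon 2 of 2 of GDF15 itself. The nearest-gene name thus changed between libraries, while a stretch of 28.3 kb ending just past the GDF15 start site was common to the 3 TM lists.

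These SEs were 114, 64.9 and 28.4 kb long in TM 1, TM 2 and TM 3, with 18, 10 and 5 stitched peaks. Their summed signal was 82186, 59814 and 38957, which is 4.50, 2.28 and 2.06 times the threshold of the same library. They ranked 63 of 1130, 436 of 1507 and 407 of 1253 by summed signal. The TM 1 SE also held the neighbouring part linked to LSM4, which every DMSO list had. Its signal and rank are therefore not those of the part over GDF15 alone. The order of the 3 libraries in summed signal followed the stitched length, and the density ran the other way, at 0.722, 0.922 and 1.37. In rank by density they stood at 56.1%, 65.0% and 16.9% of the list. The weakest of the 3 summed signals was 1.57 times the highest threshold of the DMSO lists as deposited, 1.30 times on the density scale and 1.92 times on the summed signal scale.

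The DMSO lists held only the neighbouring SE, linked to LSM4 in all 3. It ended at 18452610, 18455256 and 18452702 in DMSO 1 to DMSO 3, which is 44.4, 41.7 and 44.3 kb before the GDF15 start site. A separate SE in the same place was listed in TM 2, linked to LSM4, and in TM 3, linked to MIR3188, with summed signals of 46607 and 35968. In DMSO 1 to DMSO 3 it had 46690, 36946 and 44346, and the groups overlapped. In TM 1 the 2 parts were joined into 1 SE. From the last DMSO end to the earliest start of a separate TM SE there were 11.8 kb.

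Because the TM 1 SE bridges both parts, merging all overlapping SEs gives 1 region called in 6 of 6 lists, and the 3 to 0 pattern at GDF15 holds only for SEs that overlap the named one directly. Summed over that merged region, the listed signal was 82186, 106421 and 74926 in TM 1 to TM 3, against 46690, 36946 and 44346 in DMSO 1 to DMSO 3. The DMSO sums hold the LSM4 part alone, and the part over GDF15 is missing from them and was not measured as 0. The difference of the sums therefore restates the calls. Its limma fits, given below under the alternatives, do not test the DMSO signal at GDF15. The listed SEs of the region covered 110 ± 24.6 kb in TM, against 68.8 ± 1.46 kb in DMSO (SD, n = 3 each). Their signal per bp was 0.722, 0.803 and 0.893 in TM 1 to TM 3, against 0.686, 0.524 and 0.654 in DMSO 1 to DMSO 3, over these unequal stretches.

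**Figure D4:**
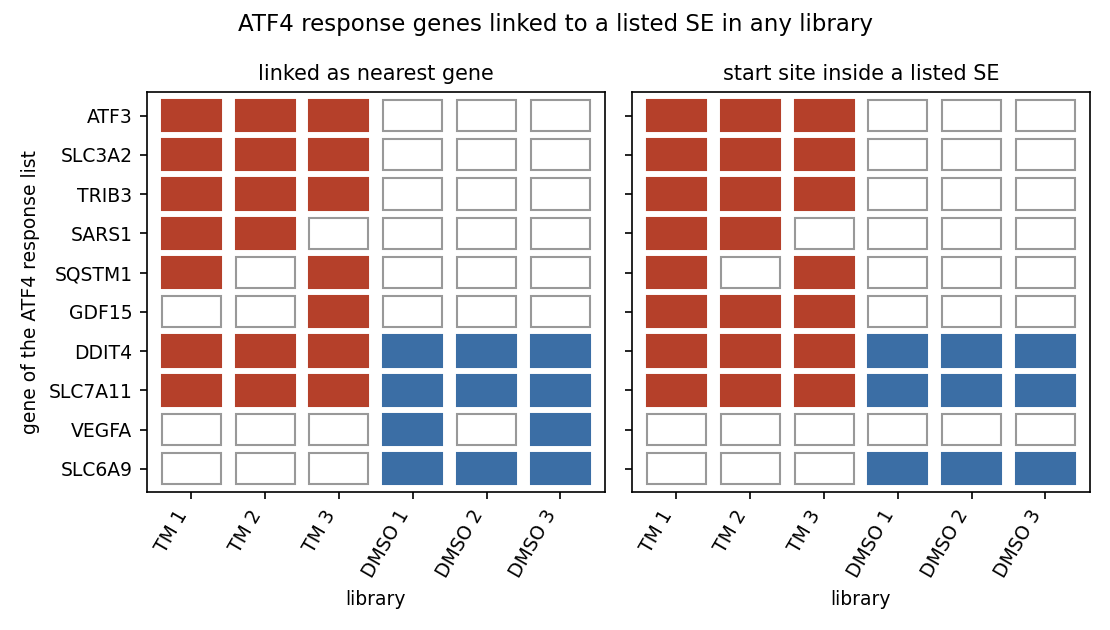
The 10 genes of the ATF4 response list that were linked to a listed SE in any library, by library, with TM columns left of DMSO columns. Filled squares on the left mark libraries in which the gene was the nearest gene of a listed SE. On the right they mark those in which a linked start site of the gene lay inside a listed SE. GDF15 is filled in 1 TM column on the left and in 3 on the right.

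The wider ATF4 response list held 60 genes, of which 10 were linked to a listed SE in any library. Of all protein-coding RefSeq genes, 7.31% were. ATF3, TRIB3 and SLC3A2 were linked in 3 of 3 TM and 0 of 3 DMSO lists, 1 gene (SLC6A9) had the reverse pattern, and DDIT4 and SLC7A11 were linked in all 6. Over all 2002 linked genes, 6.94% were linked in TM only, 4.70% in DMSO only and 26.1% in all 6. Counted by a covered linked start site, GDF15 joined the genes with the TM-only pattern, which were then 4 of the 10. For SLC3A2 this counts the NR_037193 start alone. Over all 1917 linked start sites covered in any list, the share was 4.75%. TRIB3, SLC3A2 and GDF15 were picked for this report, so only ATF3 adds to them. SARS1, the seryl-tRNA synthetase gene, and SQSTM1, which encodes the autophagy receptor p62, were linked in 2 TM lists and in 0 DMSO lists. VEGFA, an angiogenic growth factor gene, was linked in 0 TM lists and 2 DMSO lists, and its start site was covered in none. The list was chosen with earlier results of these data known, and most of its genes, ATF4, ASNS and CHAC1 among them, were linked in no list.

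ATF3, a bZIP repressor and activator induced with ATF4, had SEs of 59.2, 66.9 and 68.1 kb in TM 1, TM 2 and TM 3, with a summed signal of 48738, 63115 and 53648. DDIT4, an inhibitor of mTORC1, had longer SEs of 123 to 170 kb in TM and 126 to 128 kb in DMSO. Its summed signal was 118877, 171329 and 119616 in TM 1 to TM 3, against 125894, 93346 and 120825 in DMSO 1 to DMSO 3. The groups overlapped at DDIT4. SLC6A9, a glycine transporter gene, had SEs of 36.6 to 46.9 kb in the DMSO lists, with a summed signal of 25123, 22891 and 25136, at rank 1123 of 1132, 837 of 1290 and 1124 of 1160.

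Of 23 genes of the cystine and glutathione list, the pathway that SLC3A2 and SLC7A11 supply, 5 were linked: SLC7A11 and TXNRD1 in all 6 lists, SLC3A2 in TM only, NFE2L2 in 0 TM and 2 DMSO lists and NQO1 in 0 TM and 1 DMSO list. NFE2L2, which encodes the antioxidant regulator NRF2, nevertheless had its start sites inside a listed SE in 3 TM and 3 DMSO lists, so its links changed while the SE stayed. GCLC, GCLM, GPX4 and HMOX1 were linked in no list. Of 39 genes of the unfolded protein response, 3 were linked, against 7.31% of all protein-coding genes: ERN1 (the sensor IRE1) in 3 TM and 0 DMSO lists, and ATF6 and DERL1 in TM 2 alone. The ER chaperone gene HSPA5 and the IRE1 target XBP1 were linked in none.

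The regions with the signals most like each gene, among those with the same call pattern, were named by their linked genes. For TRIB3 they were RFX2, CLPTM1L and L1TD1, with a mean absolute log2 difference of 0.14 to 0.19 over the 3 TM libraries, out of 134 regions. For SLC3A2 they were LOXL2-AS1, LINC01822 and MIR938 (0.03 to 0.04). For SLC7A11 they were GAS1RR, TNPO1 and CDKN2A (0.10 to 0.12 over 6 libraries, out of 669 regions). For the merged GDF15 region they were ACTN4 (0.09), LOC102724467 with MIR6775, and GTF2IRD1 (both up to 0.18). ACTN4 was also the next listed SE past GDF15 in all 3 TM lists, but 20.6 Mb away. In the 3 DMSO lists the next SE was linked to C19orf33, 20.3 Mb from the GDF15 start site.

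TRIB3 and SLC7A11 stood alone. The next listed SE past TRIB3 was linked to CDC25B in all 6 libraries, 3.37 to 3.40 Mb away. The nearest SEs to SLC7A11 were linked to PCDH10 on 1 side, and to EDNRA or, in TM 2, TTC29 on the other, at 5.01 to 5.03 and 8.90 to 9.26 Mb.

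The labelled cell type was checked by the genes linked to listed SEs. Against the 7.31% of all protein-coding genes, 3 of 20 hepatocyte markers were linked (CPS1 in all 6 lists, TM4SF4 in DMSO only, FOXA1 in 2 DMSO lists), while ALB, AFP, APOA1 and HNF4A, which HepG2 cells are known to express, were linked in none. Of 8 markers of other epithelia, 5 were linked (EHF and ELF3 in all 6 lists, GRHL2 in DMSO only, KRT80 in 2 TM and 1 DMSO lists, KRT7 in 1 TM list). LUM and PDGFRB were the 2 of 8 mesenchymal markers, with 0 and 1 TM lists and 3 DMSO lists each, and PTPRC the 1 of 6 endothelial and blood markers, in 2 TM lists. Most hepatocyte markers were thus without a linked SE. The nearest gene need not be the gene an SE acts on, and the part of this in the results above was not tested. List sizes were 1130, 1507 and 1253 in TM 1 to TM 3, against 1132, 1290 and 1160 in DMSO 1 to DMSO 3, and read totals are unknown.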

How the data were processed

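The tables describe H3K27ac ChIP-seq of HepG2 cells, with 3 TM and 3 DMSO libraries. An input library is labelled and was not analysed here. Chromatin was sonicated, precipitated with antibody and sequenced, per the labels. The submitters' processing notes name CASAVA (version 1.4), mm9 and hg38 with no role. Peak calling and stitching settings and coordinate build were not given in the sources used here. The study describes its plot of SE signal in TM-treated cells as input-normalized, without giving the method. Whether the deposited signal was normalized to input was not stated. The deposited summed signal is a density (in steps of 0.0001 per bp) times the region length, and a region missing from a list has no value. The smallest gap between 2 regions of the same list was 12507 bp.

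From these tables, listed regions were merged by 1 bp of overlap. Gene names were updated with RefSeq (GRCh38.p14), which matched 7434 of 7472 regions. Groups were compared by exact permutation tests over libraries (two-sided, smallest p 0.1). Across regions, limma 3.58.1 (trend, R 4.3.3) was fitted to log2 summed signal of 1784 merged regions, with a region unlisted in a library set to that library's threshold, and to log2 density of 670 regions called in all 6 lists, centred on each library's median. P-values were adjusted by Benjamini-Hochberg over all regions fitted, with a threshold of 0.05. The fits were also run on simulated data, drawn with the same spread for all regions and without scale differences between libraries. Outcomes are not given here, so that run is no support for the fits. Other steps used scipy 1.17.1, numpy 2.4.6 and pandas 2.3.3 in Python 3.11.15, with matplotlib 3.10.9 for plots.

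The genes, lists and motifs were chosen with earlier results of these data known. The text names the 4 genes, genes of overlapping regions, linked genes of the ATF4 response, unfolded protein response, cystine and glutathione and marker lists, neighbouring listed regions, and the 3 regions with the most similar signals. Other named genes were chosen after their values were seen. Alternatives changed the threshold, overlap, library scale, imputed value, variance model, libraries and replicate block. The alternatives that use any region of the merged region, covered start sites, or ranks without 1 library were added after seeing the data. The main fits did not pair libraries by replicate number. Deviations of same-numbered libraries correlated at -0.047 to -0.008 over the 670 regions, against -0.067 to 0.079 for different numbers. This cannot show whether libraries were prepared in pairs.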

Additional observations from a re-analysis of the deposited data

How the results depend on the processing

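The calls of TRIB3 and SLC7A11 were the same under the threshold, scale, gene name and overlap alternatives. SLC3A2 was called in 33.3 percentage points more of the TM than of the DMSO lists above the highest threshold, and in 66.7 after rescaling the thresholds, against 3 of 3 and 0 of 3 lists as deposited. GDF15 was at 33.3 by its own name and at 0 over the merged region. With unlisted regions placed below the end of the list, the rank difference at SLC3A2 was -80.4 percentage points by density, against -13.8 by signal, but the -80.4 comes from that placement, since the lists stop at a summed signal and the density rank of an unlisted region is unknown. At SLC7A11, listed in all 6, it was -1.50 by density and -18.8 by signal.

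The TM-only regions (135) were 47 above the highest threshold, and 142 to 203 without 1 library (203 without TM 1). In limma over all merged regions, 14 were called higher and 47 lower in TM. These counts were 204 and 200 when scaled by summed signal, 53 and 949 when scaled by density, and 113 and 144 with unlisted values at 50% of the threshold. Without trend, 27 were higher. Without 1 library, 0 to 32 were higher and 2 to 209 lower. Over the 670 shared regions, 45 were higher and 71 lower, against 125 higher by summed signal, and 133 higher and 1 lower without centring. Without 1 library, 20 to 59 were higher and 25 to 83 lower.

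The 3 DMSO values of TRIB3 and SLC3A2 are thresholds, and the DMSO sums of GDF15 lack its unlisted part, so the following p-values do not test DMSO signal at these genes. For TRIB3 the limma adjusted p was below 0.05 without trend (difference 1.00, adjusted p 0.04997), scaled by signal (1.01) or density (0.62), with unlisted values at 50% of the list threshold (2.00) and without TM 2 (0.98, adjusted p 0.00683). Without each of the other libraries the limma adjusted p was 0.143 to 0.574 and the difference 0.81 to 1.10. For the merged GDF15 region the main difference was 1.03 (limma adjusted p 0.116). It restates the calls under every setting, since the DMSO sums lack the part over GDF15. The limma adjusted p was below 0.05 without trend (1.03), scaled by signal (1.04) or density (0.65) and without TM 2 (0.89, adjusted p 0.0312). It was also below 0.05 with 50% of the threshold (1.03, which cannot move since no value was imputed). Without each of the other libraries the limma adjusted p of this region was 0.184 to 0.487 (0.93 to 1.14). Its density difference of -0.0016 turned positive without centring (0.38), by summed signal (1.04), and without 1 library (-0.086 to 0.127). SLC3A2 reversed by density scale (-0.28) and ranged from -0.098 to 0.24 without 1 library. SLC7A11 did not pass under any alternative run. The cause of these changes was not tested. With the replicate block, 0 regions were higher and 1 lower over all merged regions, and the TRIB3 and GDF15 differences had an adjusted p of 1.00. ATF4 response genes linked in TM only numbered 3, with 3 to 4 when 1 library was left out.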
